A study of Mus musculus with 20 samples.

Results

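The transcript levels of resting wild-type eosinophils were described from 5 of the 20 arrays of the series, those labelled with the genotype WT (Dusp5+/+) and the treatment Untreated. No contrast chose them. Every gene with a probe set of its own was ranked by its mean log2 level over the 5 arrays, which gave 17771 genes. The eosinophils were grown from bone marrow, and on day 12 of culture they received medium with no IL-33. The other 15 arrays held Dusp5-/- cells without treatment and cells of both genotypes after 4 hours with IL-33 at 25 ng/ml, 5 arrays each. The series text names 5 mice per genotype, so each resting array was taken as 1 mouse. The strain, sex and age of the mice, the cytokines of the culture and the purity of the cells are not stated in the labels or the series text.

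Eosinophils are granulocytes that leave the bone marrow under the control of interleukin 5 and enter tissues along gradients of eotaxins, the ligands of the chemokine receptor CCR3. Their granules hold cationic proteins, among them major basic protein and eosinophil peroxidase, which are made during maturation and stored for release. GATA, C/EBP and PU.1 transcription factors together set the fate of the lineage, and lectin receptors such as Siglec-F mark the mature cell in mice.

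Levels are log2 values of array signal. Probe sets differ in how strongly they bind their transcripts, so the order of 2 genes is the order of their signals and need not be that of their transcripts per cell. Bulk samples were measured, in which fewer cells of a type and less RNA per cell cannot be told apart. A floor was set from 143 genes of odorant, pheromone, taste, hair keratin-associated, defensin and lens crystallin families, which are made in other tissues: the 95th percentile of their mean levels was 4.33, and 8 of them lay above it, the brightest at 5.90. A gene at or below 4.33 was placed at the floor, a gene in the top 10% of the ranking, from 8.82 up, in the high band, and the rest in the middle. These bands held 8272 genes at the floor (46.5% of those ranked), 7722 in the middle and 1777 high (10%). All 5 arrays lay above the floor for 8959 genes and none did for 7729, which left 1083 genes (6.09%) that straddled it.

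Medians of the 5 arrays ran from 4.25 to 4.29, and the arrays correlated at 0.987 to 0.996 across genes. The lowest correlation was that of arrays 2 and 3, which stood at opposite ends for many genes described further on. The SD between arrays of a gene above the floor had a median of 0.157, and 90% of these genes stayed under 0.33. With 5 arrays, precision is bounded by their number.

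**Figure D1:**
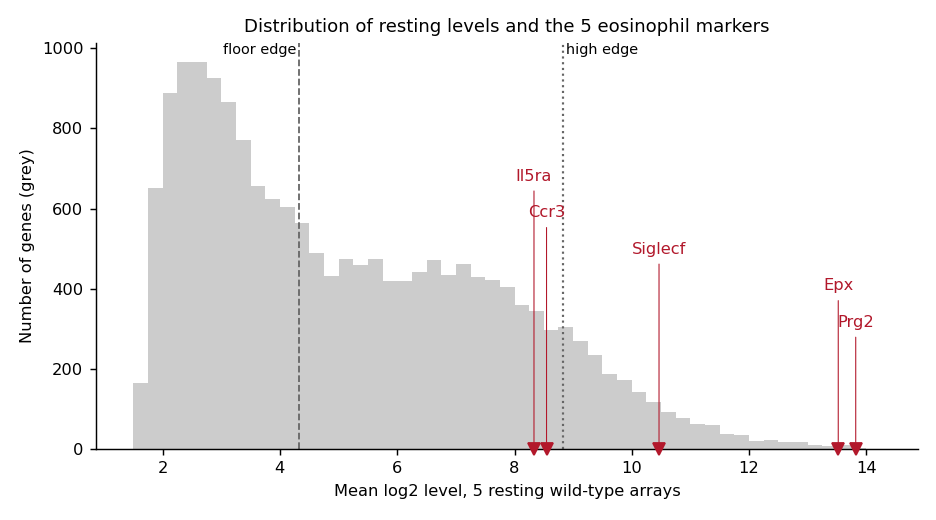
The histogram gives the number of ranked genes (vertical axis) by mean log2 level over the 5 resting wild-type arrays (horizontal axis), with the floor at 4.33 dashed and the high edge at 8.82 dotted. Triangles mark the 5 eosinophil markers, of which Prg2, Epx and Siglecf lie in the high band and Ccr3 and Il5ra just under it.

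The label was checked against 5 eosinophil markers, and all 5 lay above the floor on all 5 arrays. Prg2 encodes major basic protein, and its level was 13.87, 13.62, 13.88, 13.83 and 13.89 on arrays 1 to 5. Epx encodes eosinophil peroxidase and read 13.57, 13.01, 13.81, 13.54 and 13.67. These transcripts had rank 2 (13.82 ± 0.11, SD, n = 5) and rank 13 (13.52 ± 0.31) among 17771 genes, with array 2 the lowest for both. Siglecf, the lectin receptor, read 10.10, 10.72, 10.71, 10.35 and 10.44, at the 97.3rd percentile. Receptors of the lineage's ligands lay just under the high edge. Il5ra, the ligand-binding chain of the interleukin 5 receptor, read 8.13, 8.14, 8.75, 8.18 and 8.46, and Ccr3 read 8.44, 9.67, 7.66, 8.40 and 8.56. Ccr3 had the widest spread of the 5, with array 2 the highest and array 3 the lowest, 2.01 apart on the log2 scale.

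Of 20 granule genes listed, 11 were ranked, and 9 of these lay in the high band and 2 at the floor. Ear3, of the eosinophil ribonuclease family, stood at 13.27 ± 0.17, and Prg3, the homologue of major basic protein, at 12.97 ± 0.26. Lyz2, lysozyme, stood at 12.67 ± 0.22. The remaining high members included Serpinb1a, an inhibitor of granule serine proteases, at 10.16 ± 0.69 and Cst7 at 9.53 ± 0.22. The others were the serine protease gene Ctsg at 9.31 ± 0.43 and Rnase6 at 8.84 ± 0.20. Ctsg is also on the list of neutrophil markers given further on. The other ribonucleases ranked, Rnase2b at 3.83 ± 0.31 and Rnase2a at 2.93 ± 0.19, were at the floor. Members of this family are near-identical copies, and the probe set of Ear3 carries the suffix of probes shared between transcripts, so its signal cannot be given to 1 ribonuclease with certainty. Array 2 was the lowest for 7 of the 9 granule genes above the floor, and their mean per array was 11.65, 11.22, 11.76, 11.51 and 11.69.

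The promoter windows of 5 eosinophil genes are shown with that of Rplp0, a ribosomal protein gene whose level is near that of Epx. The ranking did not use sequence, and the base composition of these windows differs. Of the 5 markers, Prg2 had no single window, and Prg3 is shown beside the other 4. Each window covers 250 bases before to 50 bases after the RefSeq start on build GRCm38.p6, 5′ to 3′ on the gene's strand, with the letters GATAA or TATAAA in capitals (TTATC where GATAA lies on the opposite strand). The first is the core that GATA factors bind, and the second that of the TATA box. The windows lie at chr11:87875487-87875786 on the minus strand (Epx), chr2:84987965-84988264 on the plus strand (Prg3), chr7:43351091-43351390 on the plus strand (Siglecf), chr6:106748988-106749287 on the minus strand (Il5ra), chr9:124021721-124022020 on the plus strand (Ccr3) and chr5:115559217-115559516 on the plus strand (Rplp0).
Epx: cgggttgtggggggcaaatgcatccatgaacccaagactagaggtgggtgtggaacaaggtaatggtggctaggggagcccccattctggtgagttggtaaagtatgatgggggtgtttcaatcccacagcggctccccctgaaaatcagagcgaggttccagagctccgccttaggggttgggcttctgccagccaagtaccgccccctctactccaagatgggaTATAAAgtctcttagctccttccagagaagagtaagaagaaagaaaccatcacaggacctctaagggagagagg
Prg3: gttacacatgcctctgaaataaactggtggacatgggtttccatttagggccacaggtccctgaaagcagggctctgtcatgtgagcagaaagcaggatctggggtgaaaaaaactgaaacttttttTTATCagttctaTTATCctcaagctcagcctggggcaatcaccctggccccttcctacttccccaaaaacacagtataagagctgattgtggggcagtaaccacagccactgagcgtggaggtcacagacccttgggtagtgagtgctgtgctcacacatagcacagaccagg
Siglecf: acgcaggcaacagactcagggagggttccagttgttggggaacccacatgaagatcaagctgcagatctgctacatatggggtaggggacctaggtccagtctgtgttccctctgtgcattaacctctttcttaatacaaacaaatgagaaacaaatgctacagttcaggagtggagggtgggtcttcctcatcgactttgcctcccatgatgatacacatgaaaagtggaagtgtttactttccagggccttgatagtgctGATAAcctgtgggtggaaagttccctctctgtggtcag
Il5ra: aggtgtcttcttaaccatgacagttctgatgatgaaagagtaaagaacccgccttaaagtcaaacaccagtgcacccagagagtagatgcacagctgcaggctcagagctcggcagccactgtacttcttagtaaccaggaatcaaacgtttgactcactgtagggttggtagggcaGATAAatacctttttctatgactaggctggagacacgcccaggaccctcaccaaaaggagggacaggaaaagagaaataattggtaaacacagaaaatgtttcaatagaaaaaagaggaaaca
Ccr3: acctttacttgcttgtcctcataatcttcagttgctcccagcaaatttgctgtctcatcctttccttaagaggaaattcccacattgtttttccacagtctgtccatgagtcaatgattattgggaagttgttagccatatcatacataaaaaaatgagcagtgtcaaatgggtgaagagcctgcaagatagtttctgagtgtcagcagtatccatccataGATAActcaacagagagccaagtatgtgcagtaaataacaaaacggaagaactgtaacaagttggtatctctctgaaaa
Rplp0: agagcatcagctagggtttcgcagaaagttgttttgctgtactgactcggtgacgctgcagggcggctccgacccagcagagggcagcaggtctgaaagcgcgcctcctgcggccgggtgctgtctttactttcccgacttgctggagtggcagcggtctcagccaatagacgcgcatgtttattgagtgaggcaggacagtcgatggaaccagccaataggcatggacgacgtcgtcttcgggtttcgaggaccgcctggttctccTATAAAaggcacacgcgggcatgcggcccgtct

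The Epx window holds TATAAA at position -24 from the start and no GATAA on either strand. Prg3 has GATAA on the opposite strand at -123 and -111. On the gene's own strand it lies at -73 in Il5ra, at -29 in Ccr3 and at 13 in Siglecf. Rplp0 holds TATAAA at 18, after the start, and no GATAA. A match describes letters, not a bound site. Over all 11453 ranked genes with a single window, 19.0% held GATAA and 10.1% held TATAAA on either strand. The observed over expected CpG ratio, which is low where CpG dinucleotides are scarce, was 0.236 for Epx, 0.054 for Prg3, 0.115 for Siglecf, 0.273 for Il5ra and 0.088 for Ccr3. Rplp0, a ribosomal protein gene ranked next after Epx at 13.49 ± 0.03, had a ratio of 0.928 and 24 CpG dinucleotides in the window, against 5 in that of Epx.

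Markers of other blood cells were examined in the same arrays, and several lists were far from absent. Cpa3, the carboxypeptidase of mast cell granules, read 12.76, 12.90, 12.45, 12.62 and 12.64, and Mcpt8, the basophil protease, read 11.82, 11.69, 11.94, 11.65 and 11.84. Hdc, histidine decarboxylase, stood at 11.55 ± 0.22, and all 3 lay in the high band on every array. Of 15 ranked mast cell and basophil markers, 6 were high, 3 in the middle and 6 at the floor. This is 40% high and 40% at the floor, against 10% and 46.5% of all genes. The floor held the mast cell proteases Mcpt1 at 1.99 ± 0.05, Mcpt2 at 2.69 ± 0.17 and Mcpt4 at 3.36 ± 0.14 and the tryptase Tpsab1 at 2.87 ± 0.20. The mean of the 9 members above the floor lay between 9.71 and 10.03 on the 5 arrays.

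All 16 neutrophil markers lay above the floor, 6 of them high (37.5%), against 10% of all genes high and 46.5% at the floor. S100a9, a subunit of calprotectin, read 12.81, 12.64, 12.92, 12.70 and 12.62. Its partner S100a8 stood at 12.50 ± 0.23 and Ngp, neutrophilic granule protein, at 11.89 ± 0.54. Elane, neutrophil elastase, was in the middle band at 5.86 ± 0.47, and Fcnb at 5.24 ± 0.27 was the dimmest of the list. The list mean ran from 8.54 to 9.14, highest on array 3. Of 19 monocyte, macrophage and dendritic cell markers, 8 were high (42.1%) and 3 at the floor (15.8%). Adgre1, which encodes the surface protein F4/80 and which mouse eosinophils also carry, read 11.32, 11.96, 10.88, 11.39 and 11.29. The complement genes C1qb and C1qc stood at 10.70 ± 0.26 and 9.36 ± 0.20, while Zbtb46, a regulator of conventional dendritic cells, was at the floor at 2.77 ± 0.23.

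Of 14 erythroid and megakaryocyte markers 4 were high (28.6%), 5 in the middle and 5 at the floor (35.7%). Among all genes these shares were 10% and 46.5%. The high members included Pf4, platelet factor 4, at 11.31, 11.77, 11.35, 11.31 and 11.31 and Itga2b, the platelet integrin chain, at 10.43 ± 0.27. The 4 dimmest were red cell genes, with Hba-a1 at 2.75 ± 0.12, Car1 at 2.71 ± 0.09, Slc4a1 at 2.26 ± 0.21 and Rhag at 1.89 ± 0.07. No lymphocyte marker was high, and 14 of 19 were at the floor, among them Cd8a at 2.59 ± 0.18 and the B cell gene Ms4a1 at 1.82 ± 0.09. Of 19 stromal and endothelial markers, 15 were at the floor, with the collagens Col1a1 at 2.09 ± 0.10 and Col3a1 at 1.67 ± 0.19. The single high member was Pdgfrb, a growth factor receptor of stromal cells, at 10.25 ± 0.52. Progenitor markers were mostly in the middle, 12 of 18, with Kit at 7.28 ± 0.42, and 2 were high (11.1%), near the 10% of all genes. The part of other cell types in the levels given here was not tested.

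**Figure D2:**
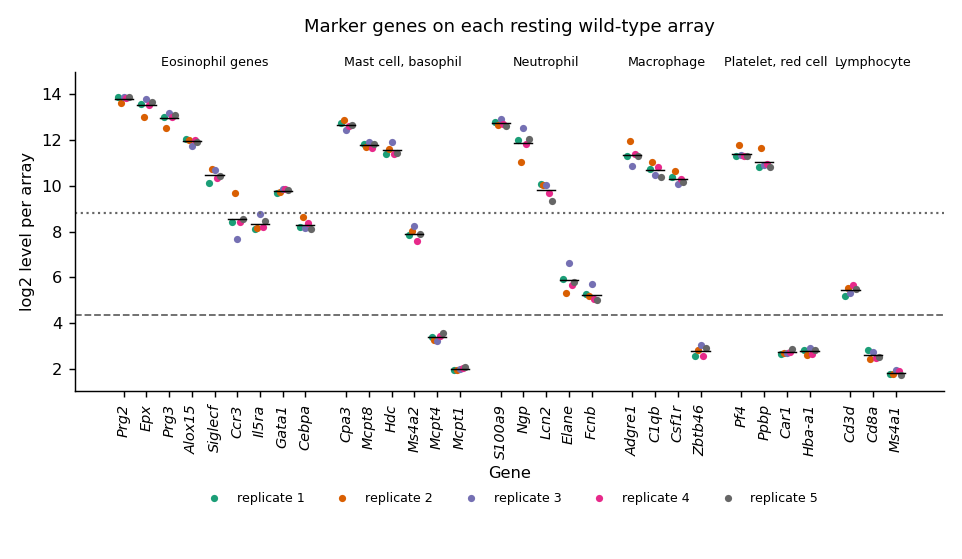
Points give the log2 level (vertical axis) of each gene on the 5 resting wild-type arrays, coloured by replicate, with the mean as a bar, the floor at 4.33 dashed and the high edge at 8.82 dotted. Eosinophil granule genes, Cpa3, Mcpt8, S100a9 and Adgre1 all lie in the high band, and Mcpt1, Zbtb46, Hba-a1 and Ms4a1 lie below the floor on all 5 arrays.

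Of 16 ranked receptor genes for haematopoietic growth factors, 5 were high, 10 in the middle and 1 at the floor. Both genes of the beta chain of the interleukin 3, interleukin 5 and GM-CSF receptors lay in the high band. Csf2rb, the shared chain, read 11.78, 12.12, 11.22, 11.58 and 11.54, and its mouse-specific paralogue Csf2rb2, the beta chain for interleukin 3, read 12.34, 12.67, 11.80, 12.29 and 12.16. The ligand-specific chains were all in the middle band, with Il5ra at 8.33 ± 0.27, Csf2ra at 7.94 ± 0.23 and Il3ra at 7.62 ± 0.20. Csf2rb and Csf2rb2 have similar sequences, and how far their probe sets tell them apart was not tested. Crlf2, a chain of the receptor for the epithelial cytokine TSLP, was high at 10.67 ± 0.21, while Il7r, its partner chain, was at 6.52 ± 0.25. Tgfbr1 at 10.63 ± 0.15 and Csf1r, the macrophage growth factor receptor, at 10.32 ± 0.22 completed the high members. Csf3r, the G-CSF receptor of neutrophils, stood at 7.05 ± 0.22, Epor at 6.30 ± 0.14 and Flt3 at 5.98 ± 0.32. Il9r at 2.33 ± 0.14 was the one receptor of the list at the floor.

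Other cytokine receptors were lower as a class than those of growth factors, with 7 of 35 high (20%) and 9 at the floor (25.7%). They were still higher than all genes, with 10% high and 46.5% at the floor. The interferon receptor chain Ifnar2 led the list at 10.81 ± 0.15, and another, Ifngr1, stood at 9.70 ± 0.16. Il1r2, the decoy receptor that binds interleukin 1 without signalling, stood at 10.30 ± 0.20, and Il18rap, a chain of the interleukin 18 receptor, at 9.55 ± 0.23. At the floor were Il2ra at 3.04 ± 0.22, Osmr at 2.68 ± 0.08, Cd27 at 2.38 ± 0.19 and Il17rc at 2.24 ± 0.29.

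Of 21 chemokine receptors ranked, Cxcr4 alone was high, 11 were in the middle and 9 at the floor, shares near the 10% and 46.5% of all genes. Cxcr4, which holds leukocytes in bone marrow through its ligand CXCL12, read 11.26, 11.18, 11.38, 11.27 and 11.40, a range far narrower than that of Ccr3. Ccr3 followed at 8.55 ± 0.72, at the 88.0th percentile. After these came Ccr1, a receptor of inflammatory CC chemokines, at 7.37 ± 0.27, Ccr9 at 7.34 ± 0.39 and Ccrl2, which binds chemerin, at 6.80 ± 0.10. Cxcr2, the neutrophil receptor, stood at 6.06 ± 0.24, Cx3cr1 at 5.75 ± 0.35 and Ccr2, the monocyte receptor, at 5.72 ± 0.48. The receptors of T cell subsets, Ccr4 at 2.68 ± 0.18, Ccr8 at 2.73 ± 0.19 and Cxcr6 at 2.81 ± 0.14, lay at the floor, as did the follicle-homing receptor Cxcr5 at 2.69 ± 0.45. The means of the 12 members above the floor ran from 6.35 on array 5 to 6.84 on array 2.

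Receptors for lipid mediators, complement fragments and purines were spread across the bands, with 6 of 35 high and 7 at the floor. P2ry14, a receptor of nucleotide sugars, stood at 10.54 ± 0.19. Ltb4r1, the leukotriene B4 receptor, read 10.22, 10.20, 10.41, 10.23 and 10.48, and S1pr4, a sphingosine phosphate receptor, read 10.05, 10.08, 10.07, 10.20 and 10.16. C3ar1, the receptor of complement C3a, was at 10.04 ± 0.28 and Ffar2, a receptor of short-chain fatty acids, at 9.66 ± 0.10. Members at the floor included Cysltr1, Ptafr and Ptgdr2. Cysltr1, for cysteinyl leukotrienes, stood at 3.39 ± 0.35, Ptafr, for platelet-activating factor, at 3.00 ± 0.18 and Ptgdr2, for prostaglandin D2, at 3.95 ± 0.08.

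Among Fc receptors, 4 of 14 were high and 4 at the floor. Fcer1g, the signalling chain shared by activating Fc receptors, stood at 12.81 ± 0.04. Fcgr3, a low-affinity receptor of IgG, read 12.78, 12.89, 12.69, 12.71 and 12.80, and Fcgr2b, the inhibitory receptor of IgG, was at 11.18 ± 0.13. Fcer1a, the binding chain of the high-affinity IgE receptor, read 10.85, 10.87, 10.40, 10.60 and 10.73. The beta chain of that receptor, Ms4a2, was in the middle band at 7.91 ± 0.24. Both are also mast cell and basophil genes, whose levels are given above. Fcer2a, the low-affinity IgE receptor, was at the floor at 2.49 ± 0.18.

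Inhibitory and paired receptors with their adaptors were among the best filled surface lists: 8 of 30 were high, 21 in the middle and 1 at the floor. Tyrobp, the adaptor DAP12 that carries activating signals, led with 13.26, 13.46, 13.19, 13.31 and 13.26. Cd300lb stood at 11.56 ± 0.19, and the phosphatase genes Inpp5d and Ptpn6, which act below inhibitory receptors, at 10.62 ± 0.21 and 10.48 ± 0.12. Cd200r4 at 10.41 ± 0.08, Pirb, an inhibitory receptor of eosinophils, at 9.77 ± 0.28 and Cd33 at 9.35 ± 0.20 were also high. Cd33 belongs to the same lectin family as Siglecf. Of the other family members named, Siglecg lay in the middle band at 6.42 ± 0.16 and Siglec1 at 4.38 ± 0.16 just above the floor, and Siglece at 3.92 ± 0.23 was the one member at it.

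Pattern recognition genes were mostly in the middle band, 22 of 32, with 4 high and 6 at the floor. Their high share, 12.5%, was near the 10% of all genes. Clec7a, the receptor dectin-1 of fungal glucans, stood at 10.94 ± 0.14, Clec4d at 9.99 ± 0.21, the adaptor gene Myd88 at 9.21 ± 0.17 and Mrc1, the mannose receptor, at 9.16 ± 0.24. The Toll-like receptor of highest signal was Tlr13, which reads bacterial ribosomal RNA, at 8.69 ± 0.23. Tlr7 at 3.81 ± 0.17, Tlr8 at 3.53 ± 0.28, Tlr3 at 3.28 ± 0.27 and Tlr5 at 3.03 ± 0.14 lay at the floor.

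Of 24 eicosanoid genes 7 were high, 10 in the middle and 7 at the floor. Alox5ap, which presents arachidonic acid to the lipoxygenase, read 13.10, 13.34, 12.99, 13.16 and 13.14, at rank 23. Alox5 itself stood at 10.65 ± 0.07 and Lta4h, which makes leukotriene B4, at 11.13 ± 0.26. Ltc4s, which makes the cysteinyl leukotriene C4, read 4.99, 4.85, 4.81, 5.01 and 4.77, above the floor on all 5 arrays and at the 52.8th percentile. Alox15, which oxidises arachidonic and linoleic acid, was at 11.95 ± 0.13. Ptgis, prostacyclin synthase, at 3.00 ± 0.06 and Hpgd at 2.69 ± 0.21 were at the floor.

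Cytokine genes formed one of the lowest lists, with 28 of 43 at the floor and 3 high. Mif at 10.88 ± 0.24, Ltb, lymphotoxin beta, at 10.22 ± 0.32 and Il16 at 9.33 ± 0.20 were high. Il4, the cytokine that drives type 2 responses, read 8.65, 9.28, 8.54, 8.73 and 8.77, just under the high edge on 4 arrays and above it on array 2. Il6 stood at 7.94 ± 0.15 and Csf1 at 7.78 ± 0.34. Ifng at 2.04 ± 0.04, Il33 at 1.86 ± 0.22 and Tgfb2 at 1.84 ± 0.09 closed the list. Of 32 chemokine genes 5 were high (15.6%) and 14 at the floor (43.8%), against 10% and 46.5% of all genes. Ccl6, a CC chemokine of mouse myeloid cells, read 13.11, 13.42, 12.86, 13.19 and 13.12, and Ccl9, its relative, read 10.85, 11.92, 10.54, 10.92 and 10.76. Array 2 was the highest for both. Ccl3 stood at 9.64 ± 0.41, and the eotaxin gene Ccl11 at the floor at 2.42 ± 0.07.

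**Figure D3:**
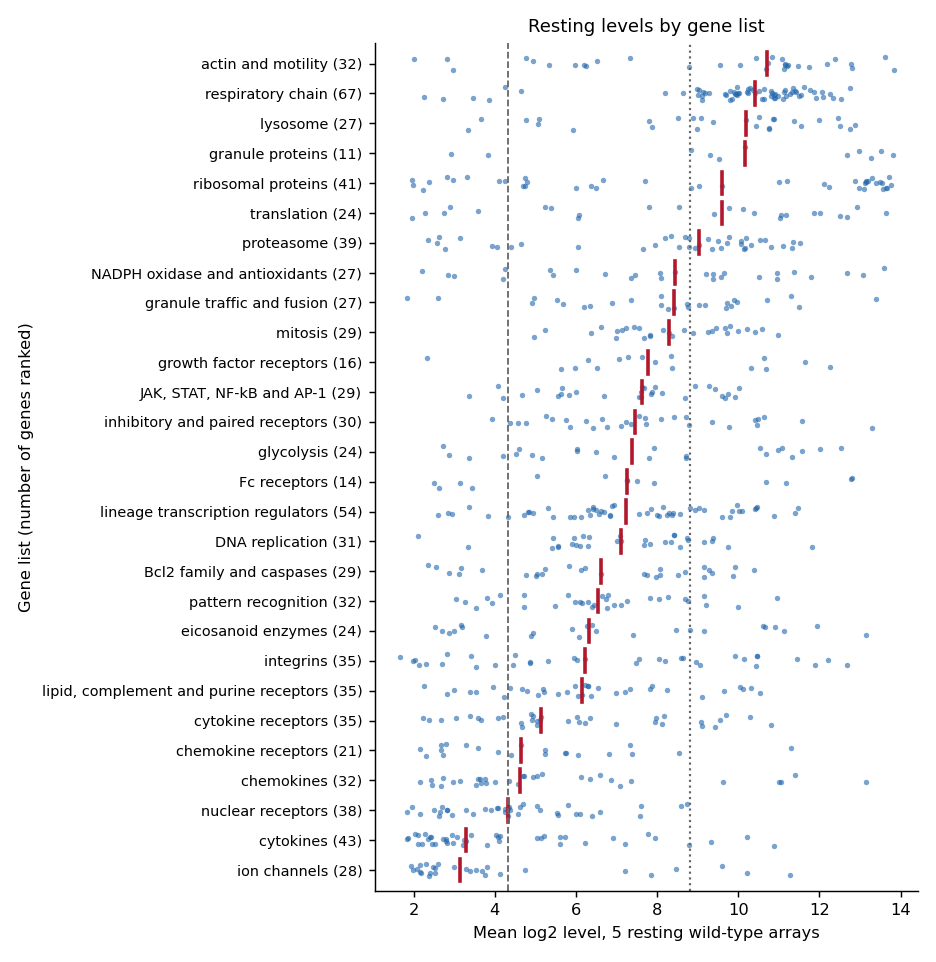
Each point is a gene, placed by its mean log2 level over the 5 resting wild-type arrays (horizontal axis), in the list named at the left with the number of genes ranked, and the red bar is the list's median. Lists are ordered by median, from actin and motility genes at 10.71 to ion channels, mainly those of nerve and muscle, at 3.15. The floor at 4.33 is dashed and the high edge at 8.82 dotted.

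Genes of movement, degradation and storage were often in the high band. Of 32 actin and motility genes 20 were high, and Tmsb4x, the actin-sequestering thymosin, had rank 1 at 13.83 ± 0.04, followed within the list by Actg1 at 13.62 ± 0.04. Of 27 lysosomal genes 18 were high, led by the cathepsins Ctsd at 12.87 ± 0.10, Ctss at 12.76 ± 0.09 and Ctsh at 12.51 ± 0.18. Srgn, the proteoglycan serglycin that packs cationic proteins in granules, read 13.37, 13.47, 13.38, 13.34 and 13.37. Vesicle fusion genes included Stx3 at 11.49 ± 0.10 and Vamp8 at 10.70 ± 0.05, while the neuronal fusion genes Snap25 at 1.84 ± 0.22 and Syt1 at 2.61 ± 0.24 were at the floor. Of 27 granule traffic and fusion genes 11 were high and 2 at the floor.

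Genes of the respiratory burst and of protection against it were also bright, with 13 of 27 high. Cyba, the membrane subunit of the NADPH oxidase, read 12.71, 12.66, 12.58, 12.72 and 12.69, while its non-phagocyte relatives Nox4 at 2.20 ± 0.08 and Duox1 at 2.84 ± 0.25 were at the floor. Fth1, ferritin heavy chain, stood at 13.58 ± 0.06, Gpx1, glutathione peroxidase, at 13.08 ± 0.02 and Cat, catalase, at 11.37 ± 0.30. Hvcn1, the proton channel that balances the charge moved by the oxidase, read 11.19, 11.18, 11.35, 11.31 and 11.36. It was the brightest of 28 ion channel genes, of which 21 were at the floor. That list was drawn mainly from voltage-gated channels of nerve and muscle, so its share at the floor does not describe ion channels at large. Trpv2 at 10.21 ± 0.22 and the calcium-activated potassium channel gene Kcnn4 at 9.60 ± 0.14 were the other high channels.

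Adhesion genes spanned the full range, with 11 of 35 high and 10 at the floor. Itgb2, the beta chain of leukocyte integrins, stood at 12.67 ± 0.08, Cd24a at 12.22 ± 0.17, the tetraspanin gene Cd9 at 11.89 ± 0.17, Selplg, the selectin ligand, at 11.46 ± 0.15 and Itgb7, of the gut-homing integrin, at 10.47 ± 0.25. Epithelial integrin chains closed the list, with Itgb6 at 2.03 ± 0.16 and Itgb8 at 1.66 ± 0.14.

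Of 54 transcription regulators of the eosinophil and neighbouring blood lineages, 15 were high (27.8%), 33 in the middle and 6 at the floor (11.1%). Among all genes 10% were high and 46.5% at the floor. Gata1, without which eosinophils do not form in mice, read 9.68, 9.74, 9.88, 9.84 and 9.81. Gata2 read 9.88, 9.94, 9.92, 9.82 and 9.70. Spi1, which encodes PU.1, stood at 10.88 ± 0.14, Xbp1, which eosinophil precursors need to survive granule protein synthesis, at 11.47 ± 0.18 and Nfe2 at 11.40 ± 0.05. Of the C/EBP genes, Cebpb was high at 9.16 ± 0.10, and Cebpd at 8.57 ± 0.12 and Cebpa at 8.30 ± 0.21 lay just under the high edge. Zfpm1, the partner FOG1 that restrains GATA1 in the eosinophil lineage, was in the middle at 6.88 ± 0.24. Id1 at 8.05 ± 0.12 and Id2 at 6.43 ± 0.45 encode inhibitors of E proteins. Myb, a regulator of dividing progenitors, stood at 10.43 ± 0.51 and was the most variable of the high members. Lymphoid regulators were at the floor, with Gata3 at 2.85 ± 0.14, Ebf1 at 2.95 ± 0.25, Pax5 at 3.36 ± 0.08 and Irf4 at 3.83 ± 0.33, and Trib2 at 2.61 ± 0.29 and Runx3 at 4.32 ± 0.16 completed the 6.

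Signalling genes lay mainly in the middle band. Of 29 genes of the JAK, STAT, NF-kB and AP-1 pathways 8 were high, led by Jak1 at 10.01 ± 0.29, Nfkbia, the inhibitor of NF-kB, at 9.93 ± 0.22 and Fos at 9.75 ± 0.16. Fosl1 at 4.21 ± 0.16, Stat2 at 4.08 ± 0.11 and Fosb at 3.37 ± 0.20 were at the floor. Of 27 genes of the ERK cascade and its phosphatases 3 were high (11.1%), near the 10% of all genes. They were Dusp1 at 9.46 ± 0.23 and the kinases Map2k2 at 9.35 ± 0.14 and Map2k1 at 9.08 ± 0.07. Dusp5, the nuclear ERK phosphatase that the study deleted, read 8.25, 8.51, 7.85, 8.21 and 7.94 and averaged 8.15 ± 0.26. Its mean in resting Dusp5-/- cells was 4.40, just above the floor of 4.33, so a value there need not mean an intact gene. Dusp6, the cytoplasmic ERK phosphatase, stood at 8.57 ± 0.35. Dusp8 at 2.47 ± 0.14 and Dusp9 at 3.11 ± 0.28 were at the floor.

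No nuclear receptor gene was high, and 19 of 38 were at the floor, close to the 46.5% of all genes. Rxra at 8.74 ± 0.17 and Rxrb at 8.59 ± 0.20, the shared partners of many nuclear receptors, came closest to the high edge. Among Bcl2 family genes, caspases and inhibitors of apoptosis 7 of 29 were high. Birc3 stood at 10.39 ± 0.28, Mcl1, the short-lived survival factor of granulocytes, at 9.92 ± 0.30 and Casp8 at 9.16 ± 0.03. Antigen presentation genes were divided, with B2m at 12.55 ± 0.09 and Cd74 at 9.80 ± 0.21 high and Ciita, the master regulator of class II genes, at the floor at 3.93 ± 0.18. Genes of type 2 activation were present without IL-33: Chil3, a chitinase-like protein, stood at 10.08 ± 0.54 and Retnla, resistin-like alpha, at 8.48 ± 0.45, while Nos2 at 3.63 ± 0.20 and Ido1 at 2.96 ± 0.12 lay at the floor. Chil3 is also made by neutrophils, whose markers are given above.

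Ribosomal proteins supplied 12 of the 25 brightest genes and 18 of the brightest 100. The 25 lay between 13.14 and 13.83, with SDs of 0.01 to 0.31. Besides ribosomal proteins, granule genes and those already given, they held Eef1a1, the elongation factor, at 13.64 ± 0.02, Lgals3, galectin 3, at 13.62 ± 0.05 and Mt1, metallothionein, at 13.24 ± 0.24. Of 67 respiratory chain subunits 59 were high, 3 in the middle and 5 at the floor, the largest share of any list in the high band. The proteasome had 21 of 39 high. Glycolysis was led by Pgk1 at 12.52 ± 0.14 and Ldha at 12.00 ± 0.10, with the testis form Pgk2 at 2.74 ± 0.17 and the neuronal form Eno2 at 2.86 ± 0.14 at the floor. Of 297 numbered zinc finger genes 4 were high and 123 at the floor, with a median percentile of 52.3.

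The same machinery shows what the floor can and cannot tell. Of 171 ribosomal, respiratory chain, proteasome and translation genes, most of which growing cells use in general, 116 were high and 26 (15.2%) were at the floor. The 26 included forms of restricted use, such as Psma8 at 3.14 ± 0.21, Rpl3l at 2.96 ± 0.16 and Psmb11 at 2.63 ± 0.36. Others among them are in general use. Eef2, the translocation factor of the ribosome, read 1.97 ± 0.12, Rpl27a 1.97 ± 0.09, Rpl35 1.98 ± 0.14, Cox5b 2.25 ± 0.18 and Tpt1 2.28 ± 0.14. The actin genes Arpc5 at 2.01 ± 0.09 and Rhoa at 2.83 ± 0.33 lay there too. A gene at the floor therefore had a dim probe set among those deposited, which does not show that its transcript was missing. Only 54 genes had more than 1 probe set there, and how the deposited probe sets were chosen is not stated.

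Most genes of cell division had a mean above the floor, with 2 of 31 DNA replication genes at it. Of 41 list means that of the mitosis genes had the largest SD between arrays, 0.614. No mitosis gene of 29 was at the floor, and 12 were high. Ube2c, which marks proteins for destruction at the end of mitosis, stood at 10.97 ± 0.70, and Mki67, the proliferation antigen, read 10.38, 9.67, 11.51, 10.48 and 10.86. The mean of the list was 8.33, 7.47, 9.07, 8.06 and 8.72 on arrays 1 to 5, a range of 1.60. Of its 29 genes 28 were highest on array 3 and 28 lowest on array 2. DNA replication genes followed the same order at the ends, with list means of 7.68, 6.71, 7.93, 7.46 and 7.80, and Pcna, the polymerase clamp, stood at 11.81 ± 0.23. The IL-33 arrays of the same replicate numbers gave mitosis means of 8.07, 6.92, 8.62, 7.71 and 8.37, again with number 3 highest and number 2 lowest. In resting Dusp5-/- cells, from other mice, the mean was 8.23, 7.24, 7.58, 7.30 and 7.66, with number 2 lowest and number 1, not 3, highest.

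Across the 9499 genes above the floor, 294 had an SD over 0.5 between the 5 arrays, and 10 an SD over 1. Of these 294, 231 were highest on array 3 and 243 lowest on array 2, and 224 were both. Among all 9499 genes, 1703 were highest on array 3 and lowest on array 2, and 1538 the reverse. Over all genes the 2 orders were thus near in number, unlike among the 294 chosen by their spread. Leaving array 2 out lowered the number with an SD over 0.5 to 71. In the IL-33 arrays 256 of the 294 were highest and 267 lowest in the same replicate number. Of the 58 replication and mitosis genes above the floor 39 were among the 294.

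The genes of widest spread were not themselves cell cycle genes. Nkg7, a granule membrane protein of cytotoxic cells, had the largest SD, 1.34, with 6.78, 5.73, 9.28, 6.64 and 7.68 on arrays 1 to 5. Ms4a3, a gene of granulocyte precursors, read 7.66, 6.83, 10.12, 7.52 and 8.91. Car4 at 7.42 ± 1.22, Grb10 at 8.09 ± 1.21 and the amino acid synthesis genes Phgdh at 9.35 ± 1.02 and Asns at 8.28 ± 0.98 were also lowest on array 2 and highest on array 3. The opposite order was seen for 29 of the 294. Avil, an actin-binding protein, read 7.97, 9.21, 6.06, 7.96 and 6.48. Gzmb, granzyme B, stood apart on array 2 alone, with 6.07, 8.13, 6.37, 5.83 and 6.22. Array 2 was the highest for 16 of 29 inhibitory receptor genes above the floor and for 13 of 16 macrophage markers. This was not particular to these lists. Among members above the floor, array 2 was also the highest for 20 of 29 actin and motility genes and 72 of 174 numbered zinc finger genes. For respiratory chain genes it was the highest in 9 of 62. How far cell composition enters these differences was not tested.

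**Figure D4:**
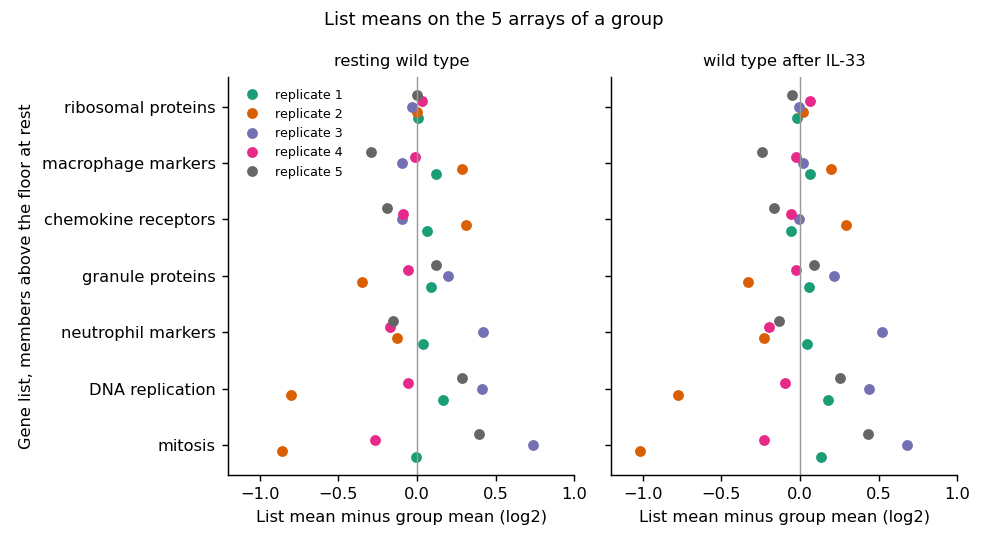
Each point is the mean log2 level of the members of a list that lay above the floor, on 1 array, minus the mean of its group (horizontal axis), for resting wild-type arrays at the left and the IL-33 arrays of the same replicate numbers at the right, coloured by replicate. Replicate 2 is the lowest for mitosis and DNA replication genes and the highest for chemokine receptors in both panels, and ribosomal protein means stay close to 0.

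Resting Dusp5-/- cells gave a similar ranking. Of the 9499 genes above the floor in wild type, 9365 lay above the same level in knockout cells, and 1692 of the 1777 high genes were high in both. The median absolute difference of the 2 means over genes above the floor was 0.106. The mitosis list, whose array values stand above, was lower on average in the knockout group, with overlapping arrays. Across the 17771 genes, which are not independent replicates, the rank correlation of the 2 sets of means was 0.997. The markers read 13.76 (Prg2), 13.34 (Epx), 10.61 (Siglecf), 9.25 (Ccr3) and 8.08 (Il5ra) in the knockout group. No test of genotype was made here.

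Promoters of high and floor genes differed in composition, a property the ranking did not use. Among ranked genes with a single RefSeq window, the median CpG ratio was 0.808 for the 1195 high genes, 0.778 for the 4945 in the middle and 0.453 for the 5313 at the floor. A ratio over 0.6 was found for 78.6%, 74.0% and 38.0% of them. With the ranking cut into 10 steps of equal size, the median rose from 0.350 in step 1 to 0.787 in step 7, with 0.817 in step 9 and 0.808 in step 10. Ribosomal (0.931) and mitosis genes (0.912) lay above these medians. Many lists of cell type genes lay below them, with 0.116 over 7 granule genes, 0.130 over 23 inhibitory receptors, 0.204 over 16 chemokine receptors, 0.158 over 10 mast cell and basophil markers and 0.156 over 15 neutrophil markers. This held for other lineages too, with 0.191 over 12 lymphocyte, 0.188 over 9 erythroid and megakaryocyte and 0.263 over 10 stromal markers, and for the reference families of the floor at 0.144. Transcription regulators of the eosinophil and neighbouring blood lineages stood at 0.708 over 28 genes.

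GATAA was found in 16.7% of high and 22.9% of floor windows, against 19.0% over all 11453 ranked genes with a single window. Over all 22862 single windows, which include genes not ranked, it was 26.3%. It was present in 3 of 7 granule genes, 8 of 10 mast cell and basophil markers and 7 of 9 erythroid and megakaryocyte markers. TATAAA was found in 8.37% of high and 13.5% of floor windows, against 10.1% of ranked and 14.8% of all single windows. It was present in 11 of 25 cytokine windows. CCGGAAG, a core of ETS family sites that is common before housekeeping genes, ran the other way, with 21.4% of high and 7.57% of floor windows. It was found in 14.2% of ranked and 9.12% of all single windows, and in 16 of 31 ribosomal protein genes. Both strands were searched, and no base of the printed windows fell in more than 1 motif. The shares are given as a description, and GC content differed between the bands too, with medians of 61.3% for high and 55.3% for floor genes.

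**Figure D5:**
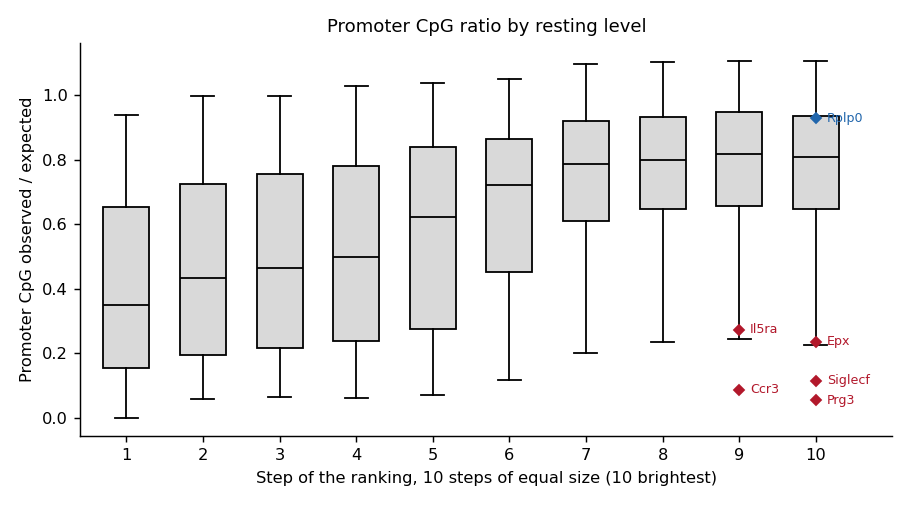
Boxes give the median and quartiles, and whiskers the 5th to 95th percentiles, of the promoter CpG observed over expected ratio (vertical axis) for genes with 1 RefSeq window, in 10 steps of the ranking (horizontal axis, 10 the brightest). In the brightest step, whose median is 0.808, Prg3 and Siglecf (red) lie below the lower whisker and Epx just above it, while Rplp0 (blue) lies at 0.928.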

How the data were processed

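Total RNA of 20 cultures, 5 of them resting wild type, was made into biotin-labelled cRNA with an Affymetrix 3' IVT kit, per the labels. Expression was deposited by the authors as log2 values of 20630 probe sets in 1 table, used here as it stands. The log2 scale was read from the values, which ran from 1.27 to 13.99. No label or file header says how the probe sets were chosen, background was corrected, probes were summarised or arrays were scaled. Array values carry no read depth.

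Symbols came from the platform annotation, which gave 1 symbol for 17826 probe sets, several for 91 and none for 2711. Control probe sets (2) were left out. RefSeq (GRCm38.p6) updated symbols through gene numbers for 17675 of them. For 54 genes with several probe sets the brightest was used. A probe set with the suffix s or x (that of Ear3, Ccl6, S100a8, C1qb, Hdc, Xbp1, Myb, Phgdh and Asns, among others) can bind related transcripts.

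Means, sample SDs and ranks were computed over the 5 arrays with Python 3.11.15, pandas 2.3.3 and numpy 2.4.6. The bands and Dixon's gap ratio, used further on, were checked on simulated data. No hypothesis test was made. Members and lists were chosen with earlier results of these data known. Genes were named from the 25 brightest, up to 6 brightest and 4 dimmest of each list, the full lists of granule proteins, growth factor and chemokine receptors, inhibitory receptors and lineage regulators, the 5 markers, Dusp5 and the 15 of largest SD. Ltc4s and Ptgdr2 were added after their values were seen. Listed genes without a probe set of 1 symbol are not used here. Promoter windows were those of RefSeq, matched by gene number: 11453 ranked genes had 1 window, 2598 several and 3720 none.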

Additional observations from a re-analysis of the deposited data

Results flagged for a closer look

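In a group of 5 arrays a value was looked at again where its gap to the nearest other array took more than 0.71 of the whole range (Dixon's 95% critical value), which chance gives in about 1 of 20 groups. This was met by 19 of 270 values, 5 of 41 list means and 14 of 229 named genes, and the array apart was array 2 in 14 of the 19. The values share the same 5 arrays and are not independent.

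Array 2 stood above the rest in the list means of integrins and adhesion genes (8.45, gap 0.846 of the range), cytokines (7.39, gap 0.831), ERK cascade and phosphatase genes (7.11, gap 0.823) and inhibitory receptors (8.03, gap 0.743). Among genes it was the highest for Pf4 (11.77, gap 0.918), Csf2ra (8.34, gap 0.853), Gzmb (8.13, gap 0.762), Eno2 (3.10, at the floor, gap 0.756), Cd300lb (11.90, gap 0.734) and Ccl9 (11.92, gap 0.724). It was the lowest for Grb10 (5.97, gap 0.775), Prg2 (13.62, gap 0.773), Pcna (11.41, gap 0.753) and Stx3 (11.32, gap 0.731).

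Array 3 stood above the rest in the mean of erythroid and megakaryocyte markers (8.56, gap 0.734) and for Cd27 (2.71, at the floor, gap 0.887). Array 1 was the highest for Nox4 (2.35, at the floor, gap 0.884). Array 5 was the lowest for Clec4d (9.64, gap 0.726) and Runx3 (4.04, gap 0.715), whose mean lies at the floor.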

How the results depend on the processing

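No paired analysis was possible because no result came from a test. The bands are conventions. With the high band at the top 20%, the number of genes in the high band was 3554 instead of 1777. The number of genes at the floor ran from 7109 (floor at the 40th percentile of all genes) to 10082 (floor at the 99th percentile of the reference families), against 8272. Of 84 counts of list members that were high or at the floor, 20 moved by more than 1.5 times with the wider high band, 13 with the higher floor, 4 with the lower floor and 1 without replicate 1. None moved with quantile normalization, the median over arrays, the mean of a gene's probe sets or without any other replicate. The rank percentile of Ccr3 ran from 85.8 to 89.6 and the rank percentile of Il5ra from 85.2 to 86.8 over all settings run. The number of genes above the floor with SD over 0.5 was 294, and leaving out each array gave 71 (without array 2) to 409 (without array 1), a setting added after seeing the data. The spread of the mitosis list mean between mice, 0.614, became 0.605 after quantile normalization and 0.442 to 0.709 with 1 array left out. With the first listed window of every gene, the median promoter CpG ratio of high genes was 0.796 and the median promoter CpG ratio of floor genes 0.455.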

Other observations

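DNA replication genes, of which 24 of 31 lay in the middle band and 5 were high, included Rrm2, a subunit of ribonucleotide reductase, at 9.74 ± 0.68 and the helicase subunit gene Mcm4 at 9.36 ± 0.46. Tyms, thymidylate synthase, lay at the floor at 2.12 ± 0.18. Of the sex-linked genes ranked, Xist, the RNA of X inactivation, read 7.13, 7.44, 7.82, 6.97 and 7.09. The Y-linked genes Kdm5d at 2.48 ± 0.15, Uty at 2.26 ± 0.22 and Eif2s3y at 2.00 ± 0.17 lay at the floor in this group.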
